A study of Sus scrofa with 64 samples.

Results

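The genes described here carry out or control the synthesis and uptake of cholesterol. They were taken as every probe whose gene symbol on the array's platform is HMGCS1, FDPS, SQLE, DHCR7, SCARB1 or SREBF2. This gave 8 of the 23935 probes, for 5 of the 6 genes, with 4 probes for SREBF2. DHCR7, the reductase of the last step of synthesis, had no probe under its symbol and is not analysed here. Messenger RNA was measured on 64 arrays from 16 tissues of the same 4 pigs. According to the methods of the study, these came from 2 breeding companies and were housed together and fed alike from weaning on. Which pigs came from which company is not stated, so a difference of origin cannot be told apart from breed. A Large White male of 38.8 kg and a Large White female of 36.2 kg were killed at 87 days of age, and an Iberian male of 25.4 kg and an Iberian female of 32.8 kg at 89 days. Large White is a lean commercial breed, and Iberian a fat local breed of Spain. Each breed and sex is thus represented by 2 animals, and p-values between tissues measure the spread between arrays of these 4 animals. All values are log2 signals as deposited after normalization, on which each unit is a doubling. Values of single animals are given in the order Large White male and female, then Iberian male and female.

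Animal cells build cholesterol from acetyl-CoA through mevalonate, farnesyl diphosphate and squalene, or take it up from lipoproteins. When sterols run low in the membranes of the endoplasmic reticulum, SREBF2 is released and switches on genes of synthesis and uptake together. The liver makes cholesterol and turns it into bile acids and lipoproteins, whereas the adrenal cortex turns it into steroid hormones and, in mice, draws much of it from high density lipoproteins through SCARB1.

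Some arrays stood apart and touch the results below. The Large White male's pineal array had a mean signal of 8.66 over the 3 of 5 listed myelin genes with a probe. The other 3 pineal glands had 4.76 to 5.26, and the hypothalamus arrays 9.56 to 9.64. The adrenal medulla overlapped the cortex in cortex genes. Over the 7 of 8 listed cortex genes with a probe the mean signal was 10.81 to 11.35 in adrenal medulla and 11.06 to 11.51 in adrenal cortex, against 5.83 to 5.98 in liver. Over the 4 of 7 listed chromaffin cell genes with a probe it was 10.06 to 11.06 in adrenal medulla and 7.71 to 9.94 in adrenal cortex. PNMT, the enzyme that makes adrenaline, was at 11.35 ± 0.46 in adrenal medulla and 9.44 ± 1.11 in adrenal cortex (SD, n = 4 each). Both adrenal tissues were separated with a knife according to the methods of the study, and they are pooled as adrenal gland in the main comparison. The paper could not exclude that each was contaminated with the other, as the border of the medulla is irregular. Liver arrays were alike in hepatocyte genes, with means over all 7 listed genes between 12.89 and 13.01, against 3.50 to 4.21 in adrenal medulla and 3.65 to 3.91 in adrenal cortex. In bulk tissue, a different share of a cell type and a different amount of RNA per cell cannot be told apart.

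The adrenal gland and the liver both had high levels of these genes but differed in which ones. The uptake receptor SCARB1 was 17.9-fold higher in adrenal gland than in liver and FDPS was 2.25-fold higher, whereas SQLE was 3.26-fold lower. HMGCS1 and SREBF2 did not pass the test. Of the 8 probes, 2 were higher in adrenal gland with an adjusted p under 0.05, where 26.4% of all probes were, and 1 was lower, where 22.2% of all probes were. For 2 of the 8 the adrenal and liver arrays did not overlap, which held for 33.6% of all probes.

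SCARB1, the receptor that takes cholesteryl esters from high density lipoproteins into the cell, was at 12.08, 12.09, 12.15 and 12.18 in adrenal cortex. In adrenal medulla the 4 animals were at 11.76, 12.19, 11.92 and 12.14, and in liver at 8.12, 8.11, 7.57 and 7.81. Every adrenal array was thus far above every liver array. The liver arrays of the Large White pigs were above those of the Iberian pigs, an order that 24.8% of all probes had in liver. The difference was 4.16 (95% interval 3.75 to 4.58, adjusted p = 5.5e-24 from limma) and lay between 3.80 and 4.47 within the 4 animals. The lowest adrenal array (11.76) was also above the highest array of all other tissues (8.86, back fat of the Large White male), an arrangement found for 1.12% of all probes.

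FDPS makes farnesyl diphosphate, the precursor that sterols share with ubiquinone, dolichol and the prenyl groups of proteins. In adrenal cortex it was at 10.42, 10.62, 10.23 and 10.42, and in adrenal medulla at 10.04, 10.45, 10.01 and 10.23. In liver the same animals were at 9.17, 10.09, 8.74 and 8.53. The liver of the Large White female thus reached the adrenal range, while the other 3 livers were below all adrenal arrays. The difference was 1.17 (0.72 to 1.61, adjusted p = 1.4e-05 from limma), positive in all 4 animals and smallest in the Large White female (0.44, against 1.06 to 1.79 in the others).

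SQLE, squalene epoxidase, adds the first oxygen on the way from squalene to cholesterol and is one of the steps at which flux is controlled. It was at 8.24, 8.07, 8.59 and 8.10 in adrenal cortex and at 8.02, 7.93, 8.27 and 8.23 in adrenal medulla. In liver it was at 9.91, 10.18, 9.87 and 9.59, above the adrenal arrays in every animal. The difference was -1.71 (-2.23 to -1.19, adjusted p = 1.7e-07 from limma), between -2.18 and -1.43 within animals. The lowest liver array (9.59) was just above the highest of all other arrays (9.52, olfactory bulb of the Iberian female), and 2.88% of all probes had all 4 liver arrays above the other 60.

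HMGCS1, the cytosolic synthase that makes HMG-CoA ahead of the mevalonate step, was between 9.92 and 10.17 in adrenal cortex, at 9.69, 9.77, 9.83 and 9.80 in adrenal medulla and at 10.06, 10.50, 9.58 and 9.13 in liver. The adrenal arrays lay within a narrow range that fell inside the wider range of the livers. The difference was 0.08 (-0.43 to 0.60, adjusted p = 0.81 from limma), negative in both Large White pigs (-0.21 and -0.65) and positive in both Iberian pigs (0.42 and 0.77). SREBF2, the transcription factor that activates these genes, averaged 8.24 ± 0.17 in adrenal gland on its leading probe (SD, n = 8 arrays of the 4 animals). In liver it averaged 8.35 ± 0.26 (SD, n = 4), a difference of -0.11 (-0.38 to 0.16, adjusted p = 0.53 from limma). The array measures the messenger of SREBF2 and not the cleaved protein.

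**Figure D1:**
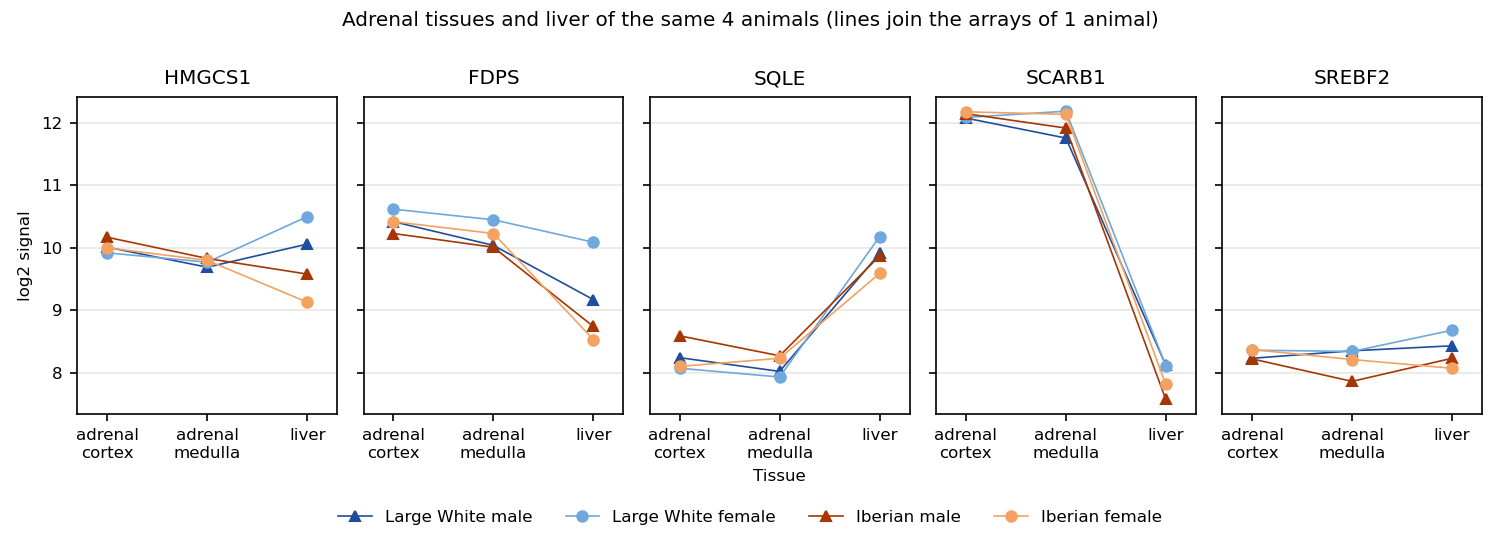
Log2 signal of the leading probe of each gene in adrenal cortex, adrenal medulla and liver, where each line joins the arrays of 1 animal (triangles males, circles females, blue shades Large White, brown and orange Iberian). SCARB1 was at 11.76 or more in the adrenal arrays and at 8.12 or less in the livers, SQLE was highest in the livers, and the livers spread more than the adrenal tissues for HMGCS1 and FDPS.

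The other 3 probes of SREBF2 averaged 3.86, 3.85 and 3.28 over all arrays, below the median of 5.46 of all values, and had their highest tissue means in *Biceps femoris* (4.61) or blood (4.86 and 4.03). Their differences between adrenal gland and liver were -0.35, -0.04 and -0.09, with adjusted p of 0.082, 0.76 and 0.53 from limma. Their order of tissues was thus another than that of the leading probe, and they are left aside in most of what follows.

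Set against the 13 tissues that are neither adrenal nor liver, both organs were higher in all 5 genes. In adrenal gland 5 of the 8 probes were higher (24.6% of all probes were), by 4.93 ± 0.13 for SCARB1 (SE of the difference), 2.49 ± 0.14 for FDPS, 2.15 ± 0.16 for HMGCS1, 1.25 ± 0.16 for SQLE and 0.66 ± 0.08 for SREBF2. In liver 6 of the 8 were higher (20.6% of all probes were), by 2.95 ± 0.22 for SQLE, 2.06 ± 0.22 for HMGCS1, 1.32 ± 0.19 for FDPS and 0.77 for both SCARB1 and the leading probe of SREBF2 (SE 0.18 and 0.11), while SREBF2 probe 2 had 0.39 ± 0.14. Both sets of differences are taken from the same 13 tissues. SCARB1 and FDPS stood out more in adrenal gland and SQLE more in liver, as the direct comparison of both organs shows.

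Within the adrenal gland none of the 8 probes passed between medulla and cortex by limma, and 0 had an unadjusted p under 0.05 (0.999% of all probes were higher and 0.00418% lower in medulla). HMGCS1 was lower in medulla than in cortex in all 4 animals, with a within-animal difference of -0.25 ± 0.09 (SD, n = 4), and FDPS likewise with -0.24 ± 0.10. For SCARB1 the difference was -0.12 ± 0.19 and for SQLE -0.14 ± 0.19, each negative in 3 of the 4. The 95% intervals of limma lay between -0.84 and 0.46 over these 4 genes. SCARB1, FDPS and SQLE also differed from liver in each adrenal tissue alone, by 4.10, 1.05 and -1.77 in medulla and by 4.23, 1.29 and -1.64 in cortex, and all 6 passed. SREBF2 probe 2 was also lower in medulla than in liver (-0.49, adjusted p = 0.033 from limma).

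Other cholesterol genes were taken from a list of 74 symbols, of which 40 had a probe, the members included. Of the 12 probes of other synthesis genes 0 were higher and 9 were lower in adrenal gland than in liver (26.4% and 22.2% of all probes were), with a median difference of -0.80, against -0.02 over all probes. Yet the same 12 probes were mostly higher in adrenal gland than in the 13 other tissues (10 of 12, where 24.6% of all probes were, median 1.15, against -0.07 over all probes), and all 12 were higher in liver than there (20.6% of all probes were, median 2.18, against -0.05 over all probes).

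Among the steps from squalene on, TM7SF2, a sterol reductase, averaged 7.38 ± 0.27 in adrenal gland and 10.12 ± 0.35 in liver (SD, n = 8 and 4 arrays of the same animals). The difference was -2.73 (adjusted p = 1.9e-20 from limma). SC5D, the desaturase of a late step, differed by -1.96, HSD17B7, which reduces a 3-ketosteroid in the removal of the methyl groups, by -1.95, and NSDHL, which acts beside it, by -1.08. MSMO1, the methyl oxidase, differed by -0.71 on its leading probe and by -1.54 and -0.35 on the others, and FDFT1, squalene synthase, by -0.45 on its leading probe. CYP51, the demethylase of lanosterol, was at 10.85 ± 0.12 in adrenal gland and 11.16 ± 0.17 in liver and did not pass (adjusted p = 0.35 from limma), and ACAT2, the thiolase of the first step, was at 8.84 ± 0.31 in adrenal gland and 9.10 ± 0.34 in liver and did not pass either (adjusted p = 0.31).

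Of the 10 probes for uptake and release from lysosomes, SCARB1 included, 4 were higher in adrenal gland, 1 was lower and 5 did not pass. These shares are near those of all probes, of which 26.4% were higher and 22.2% lower. NPC1, which exports cholesterol from lysosomes, was at 11.64 to 12.03 in the adrenal arrays and at 7.89 to 8.50 in the livers, a difference of 3.71 (adjusted p = 3.2e-18 from limma). Its partner NPC2 differed by 2.29 on its leading probe, by -0.21 on the next, which did not pass, and by -0.29 on the dimmest, so its probes disagreed. LIPA, the acid lipase that splits cholesteryl esters in lysosomes, differed by 0.69 on its leading probe (adjusted p = 4.5e-05 from limma) and by 0.12 on the other, which did not pass. VLDLR, a receptor of lipoproteins, was at 6.63 ± 0.60 in adrenal gland and 6.66 ± 0.28 in liver on its leading probe and did not pass. That probe was the single one of the list that passed between medulla and cortex (0.99 higher in medulla, adjusted p = 0.0028 from limma). Cortex alone differed from liver by -0.53 (adjusted p = 0.036 from limma), and medulla alone by 0.46, which did not pass (adjusted p = 0.06). PDZK1, a scaffold that keeps SCARB1 protein at the surface of mouse liver cells, was at 2.81 ± 0.22 in adrenal gland and 9.45 ± 0.22 in liver on probe 2, while its leading probe was dim throughout (3.89 ± 0.42 in adrenal gland and 4.25 ± 0.15 in liver).

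Of the 11 probes of regulators, SREBF2 included, 1 was higher, 4 were lower and 6 did not pass, against the same 26.4% higher and 22.2% lower of all probes. SCAP, the escort that carries SREBF proteins to the Golgi when sterols are low, was at 8.97 ± 0.19 in adrenal gland and 7.20 ± 0.27 in liver, a difference of 1.77 (adjusted p = 6.1e-16 from limma). The proteins that hold SCAP back, INSIG1 and INSIG2, had differences of -2.75 and -2.34. INSIG1 also varied between the animals within both adrenal tissues. It was at 9.69, 7.89, 9.70 and 8.33 in cortex and at 9.37, 7.57, 9.37 and 8.54 in medulla. Both males were thus above both females in each, an order that probes had in 2.38 tissues on average. Cortex and medulla are parts of the same glands and overlapped in cortex genes, so they are not separate observations. The order was picked out among the listed genes and was not tested within these tissues. SREBF1, the relative of SREBF2 that acts mostly on fatty acid genes, was at 5.04 ± 0.17 in adrenal gland and 5.18 ± 0.31 in liver and did not pass.

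The genes that use cholesterol separated both organs, where 26.4% of all probes were higher and 22.2% lower in adrenal gland. All 6 probes for conversion to steroids were higher in adrenal gland, with STAR, which brings cholesterol into mitochondria, at 12.78 ± 0.11 in adrenal gland and 3.43 ± 0.09 in liver, and all 5 for conversion to bile acids were lower, with CYP27A1, a sterol hydroxylase, at 7.85 ± 0.21 in adrenal gland and 10.62 ± 0.40 in liver. CYP7A1, the rate-limiting enzyme of bile acid synthesis, was at 2.56 to 2.83 in the adrenal arrays and varied widely among livers, with 5.15, 2.96, 7.71 and 3.72. The 5 bile acid probes stood for 3 genes, and the third, CYP8B1, was dim in both organs (2.93 ± 0.20 in adrenal gland and 3.43 ± 0.17 in liver). Of the 6 probes for esterification and efflux 1 was higher and 5 were lower. ABCA1, which loads cholesterol onto apolipoprotein A1, differed by 1.15, whereas APOA1, APOE and LCAT, proteins of plasma lipoproteins, differed by -4.72, -5.19 and -5.36 on their leading probes.

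**Figure D2:**
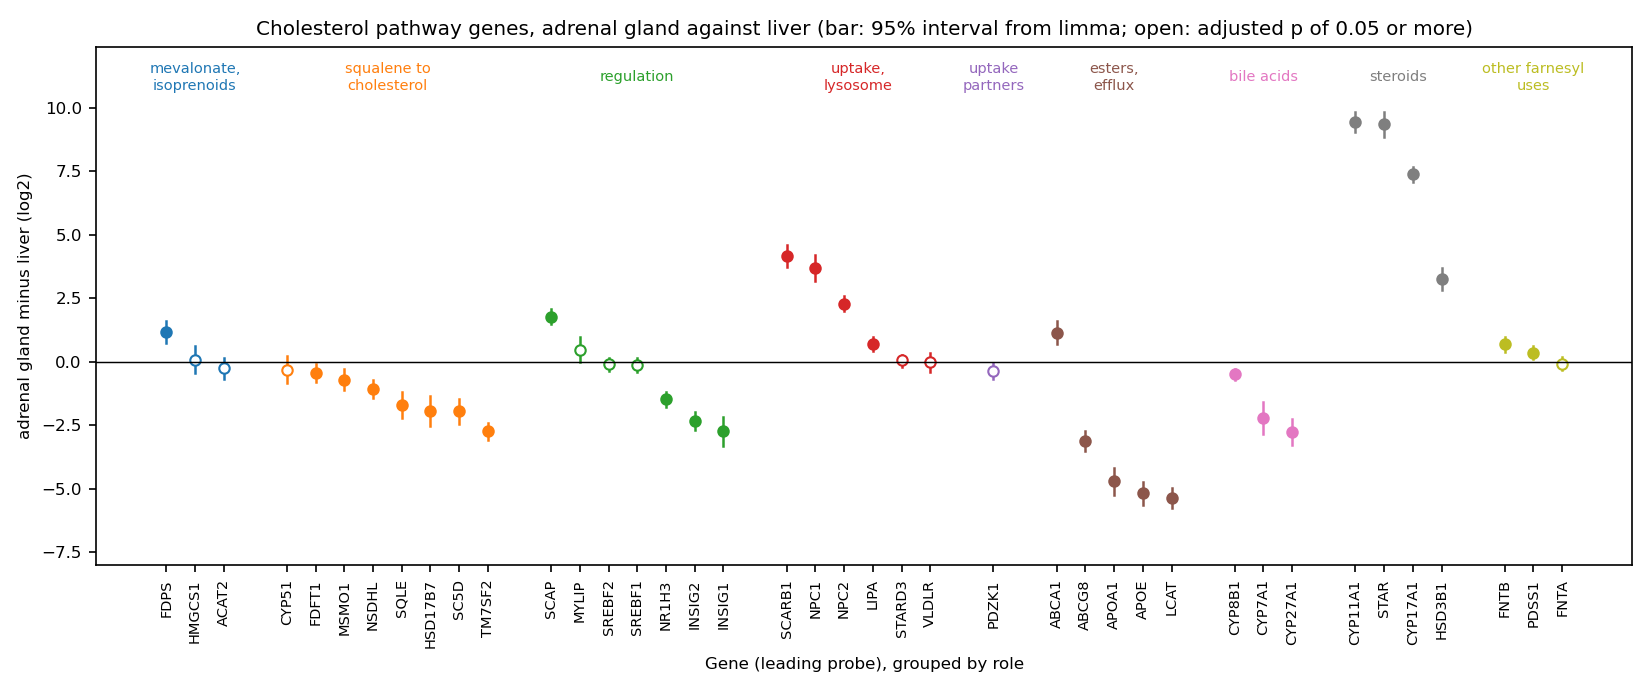
Difference between adrenal gland and liver (log2, adrenal gland minus liver, 8 against 4 arrays) of the leading probe of each listed gene, grouped by role, with 95% intervals from limma. Filled points have an adjusted p under 0.05. All genes from squalene to cholesterol lie below 0, with CYP51 as the unfilled one. Of the uptake and lysosome genes SCARB1, NPC1, NPC2 and LIPA lie above 0, while VLDLR (-0.03) and STARD3 (0.05) are unfilled.

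Across the 16 tissues the level of each member varied with the tissue (all 8 probes passed the F test of limma, as did 98.2% of all probes). Between the highest and the lowest tissue mean SCARB1 spanned 5.59 log2 units, HMGCS1 5.18, SQLE 4.54, FDPS 3.72 and SREBF2 2.29 on its leading probe, against a median span of 1.74 over all probes. In the comparison of each tissue with the other 15, the 5 leading probes gave 80 tests. Of these 28 were higher and 39 lower, where 22.8% and 27.4% of the tests of all probes were.

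Hypothalamus and olfactory bulb stood beside liver and adrenal gland as sites of high synthesis genes, though olfactory bulb did not pass for FDPS (0.38, adjusted p = 0.084 from limma). The hypophysis was low instead. HMGCS1, FDPS and SQLE differed from the other 15 tissues by -0.87, -1.24 and -0.68 in adenohypophysis and by -1.10, -1.13 and -1.08 in neurohypophysis, and all passed. Without all arrays of the Iberian male, SQLE in adenohypophysis was at -0.67 and did not pass (adjusted p = 0.056 from limma). HMGCS1 was highest in hypothalamus at 11.09 ± 0.14 (SD, n = 4), with all 4 arrays (10.96 to 11.29) above the olfactory bulb, the next tissue (9.55 to 10.88). Olfactory bulb (10.14 ± 0.59), adrenal cortex (10.02 ± 0.10), pineal gland (9.48 to 11.03), liver (9.82 ± 0.59) and adrenal medulla (9.77 ± 0.06) followed without a gap between neighbours. The next tissue, ileum (8.22 ± 0.26), was below all medulla arrays. Below it the neighbours overlapped down to *Biceps femoris* (6.28 ± 0.65) and blood (5.92 ± 0.50).

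SQLE followed much the same order, with liver ahead. After liver (9.89 ± 0.24) came hypothalamus (9.26 ± 0.14), olfactory bulb (8.87 ± 0.54), adrenal cortex (8.25 ± 0.24), adrenal medulla (8.11 ± 0.16), pineal gland (8.09 ± 0.83) and ileum (7.65 ± 0.26), and from hypothalamus on each of these overlapped the next. The lowest levels were those of the muscles, *Biceps femoris* (5.59 ± 0.17) and diaphragm (5.35 ± 0.11), which lay below all blood arrays (5.96 to 6.27).

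FDPS had a flatter order after the adrenal tissues. Adrenal cortex (10.42 ± 0.16) and adrenal medulla (10.18 ± 0.20) overlapped, and all medulla arrays were above hypothalamus (9.17 ± 0.16). Liver (9.13 ± 0.69), *Biceps femoris* (8.64 ± 0.13) and olfactory bulb (8.56 ± 0.39) came next, and thyroid gland was lowest (6.70 ± 0.23). *Biceps femoris* was thus 0.47 above the mean of the other tissues for FDPS (adjusted p = 0.026 from limma), but differed from it by -1.99 and -1.80 for HMGCS1 and SQLE, and diaphragm, the other muscle, was lower for all 3 genes (-0.55 for FDPS, adjusted p = 0.011). These calls lay near the threshold, and leaving out arrays moved the differences little. Without the *Biceps femoris* of the Iberian male or of the Iberian female the difference there was 0.41 (adjusted p = 0.098) or 0.43 (adjusted p = 0.082), and without all arrays of the Iberian male that of the diaphragm was -0.52 (adjusted p = 0.07).

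SCARB1 was far higher in the adrenal tissues than elsewhere, and fat, liver and pineal gland followed with overlapping arrays. Back fat came next by its mean, with 8.86, 8.45, 8.01 and 8.07, and then abdominal fat, with 8.66, 8.55, 7.46 and 7.86. Against the other 15 tissues back fat was higher by 0.59 (adjusted p = 0.0052 from limma), but without the array of the Large White male it did not pass (0.41, adjusted p = 0.10), nor did abdominal fat with all its arrays (0.36, adjusted p = 0.098). Both Large White pigs were above both Iberian pigs in either depot, where 21.8% (back fat) and 19.7% (abdominal fat) of all probes had this order. The mean of the 5 endothelium genes had the same order in both depots. In back fat it was 8.41 and 8.64 in the Large White pigs against 7.82 and 8.14 in the Iberian pigs. In abdominal fat it was 8.21 and 8.58 in the Large White pigs against 7.78 and 8.02 in the Iberian pigs. The mean of the macrophage genes (3 of 6 listed with a probe) was lower in the Large White pigs, with 6.34 and 6.28 in that breed against 7.40 and 7.0 in the Iberian pigs in back fat, and 7.32 and 7.20 in the Large White pigs against 7.78 and 7.40 in the Iberian pigs in abdominal fat. Of the 11 marker lists, 5 had both arrays of 1 breed above both of the other in back fat and 5 in abdominal fat. Over all probes, the share with both Large White arrays below was 22.9% in back fat and 23.3% in abdominal fat. The abdominal fat of the Large White female also had a mean of 7.86 for the hepatocyte genes, against 4.02 to 4.44 in the others. The part of these cell types in the SCARB1 levels was not tested. Liver (7.90 ± 0.26) was 0.11 above the mean of the other 15 tissues, with the adrenal tissues among them, and did not pass (-0.24 to 0.46, adjusted p = 0.64 from limma). The pineal gland averaged 7.66 ± 0.93, with the Large White male at 6.27 and the other 3 at 8.07 to 8.22, within the range of abdominal fat. From there down to thyroid gland (6.54 ± 0.49) the neighbours overlapped. The thyroid of the Large White female (7.25, against 6.13 to 6.42 in the others) also had the highest mean of the adipocyte genes among the thyroids (6.62 over the 5 of 7 listed genes with a probe, against 5.04 to 6.01), and their part in that value was not tested.

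SREBF2 varied least of the 5 leading probes. Hypothalamus (8.71 ± 0.15) and olfactory bulb (8.57 ± 0.12) led, and liver (8.35 ± 0.26), adrenal cortex (8.29 ± 0.08), stomach (8.23 ± 0.22), adrenal medulla (8.19 ± 0.23) and ileum (8.19 ± 0.16) followed, each overlapping the next. Abdominal fat (6.79 ± 0.13) and back fat (6.42 ± 0.10) were lowest and did not overlap each other. Stomach was thus 0.56 above the mean of the other tissues for SREBF2 (adjusted p = 6.8e-05 from limma) but differed from it by -0.96 for FDPS.

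**Figure D3:**
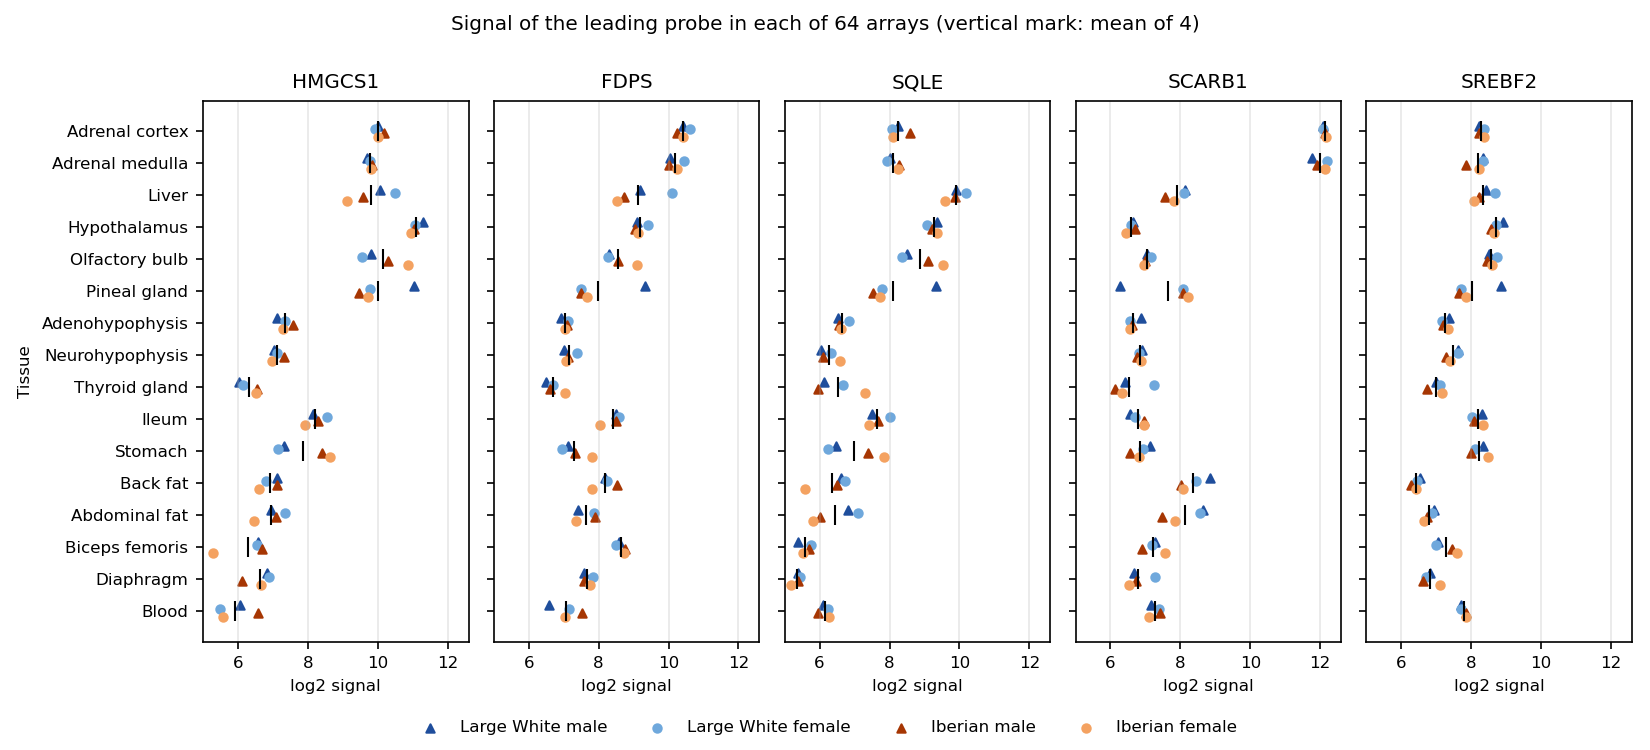
Log2 signal of the leading probe of each gene in every array, by tissue, with 4 arrays per tissue (triangles males, circles females, blue shades Large White, brown and orange Iberian) and the tissue mean as a vertical mark. SCARB1 sets the adrenal tissues apart from all others, HMGCS1 and SQLE share high levels in hypothalamus, olfactory bulb, liver and adrenal tissues, and the Large White male's pineal array lies away from the other 3.

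The 12 probes of other synthesis genes were spread over the tissues in a similar way. Their median deviation from the mean of the 16 tissues was 1.93 in liver, 1.25 in hypothalamus, 0.89 in adrenal cortex, 0.79 in adrenal medulla and 0.65 in olfactory bulb, and it was lowest in diaphragm (-1.34), blood (-1.23) and *Biceps femoris* (-0.95). Over all probes the corresponding medians lay between -0.13 and 0.10.

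The Large White male's pineal array had 9.33 for SQLE, 9.32 for FDPS, 11.03 for HMGCS1 and 8.85 for SREBF2, each above the other 3 pineal arrays, and 6.27 for SCARB1, below them. The other pineal arrays were at 7.52 to 7.79 for SQLE, 7.50 to 7.66 for FDPS, 9.48 to 9.77 for HMGCS1, 7.66 to 7.85 for SREBF2 and 8.07 to 8.22 for SCARB1. For all 5 genes this array was closer to the hypothalamus means than to the other pineal arrays, as it was for the myelin genes. Without it, the pineal gland did not pass against the other tissues for SQLE (0.44, adjusted p = 0.097 from limma, against 0.87 and 7.1e-04 with it) or for SREBF2 (0.05, adjusted p = 0.75, against 0.33 and 0.014 with it), and it was lower for FDPS (-0.69, adjusted p = 8.5e-04). Leaving it out also brought 3 results in other tissues past the threshold: olfactory bulb for FDPS (0.41), neurohypophysis for SREBF2 (-0.23) and abdominal fat for SCARB1 (0.33).

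Over the 16 tissue means the levels of HMGCS1 and SQLE had a correlation of 0.92, HMGCS1 and SREBF2 of 0.81, SQLE and SREBF2 of 0.81, FDPS and SCARB1 of 0.76 and HMGCS1 and FDPS of 0.72, whereas SCARB1 was related weakly to SQLE (0.27) and SREBF2 (0.18). These are descriptions over 16 points that share the 4 animals and the common normalization. FDPS and SCARB1 both had their highest means in the adrenal tissues, which may each be contaminated with the other. SCARB1 was at 8.35 or less in every other tissue, so the adrenal points weigh heavily in the 0.76 of this pair. A value for FDPS and SCARB1 without the adrenal tissues was not calculated. The genes most like each member over the 16 means were often of the same pathway for HMGCS1 and SQLE. For SQLE they were MSMO1 (r = 0.943), HMGCS1 (0.922) and CYP51 (0.915), and for HMGCS1 they were SQLE, MSMO1 (0.919) and MSRA, a methionine sulfoxide reductase (0.901). For SCARB1 they were AKR1CL1 (0.978), SERPINB7, a serpin (0.965), and STAR (0.956), all with their highest mean in adrenal cortex. For FDPS they were MEIS1, a homeobox gene (0.853), the dimmer ACAT2 probe (0.842) and MCOLN1, a lysosomal channel (0.838), and for SREBF2 ZDHHC14, a palmitoyltransferase (0.838), AP1S1, an adaptor subunit (0.819), and SQLE (0.814). With liver and both adrenal tissues left out, all 3 remained for SQLE, 1 for HMGCS1 and 0 for SCARB1, FDPS and SREBF2. With Spearman's rank correlation over the 16 means, 3 remained for SQLE, 2 for HMGCS1, 2 for SREBF2, 1 for SCARB1 (AKR1CL1) and 0 for FDPS.

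**Figure D4:**
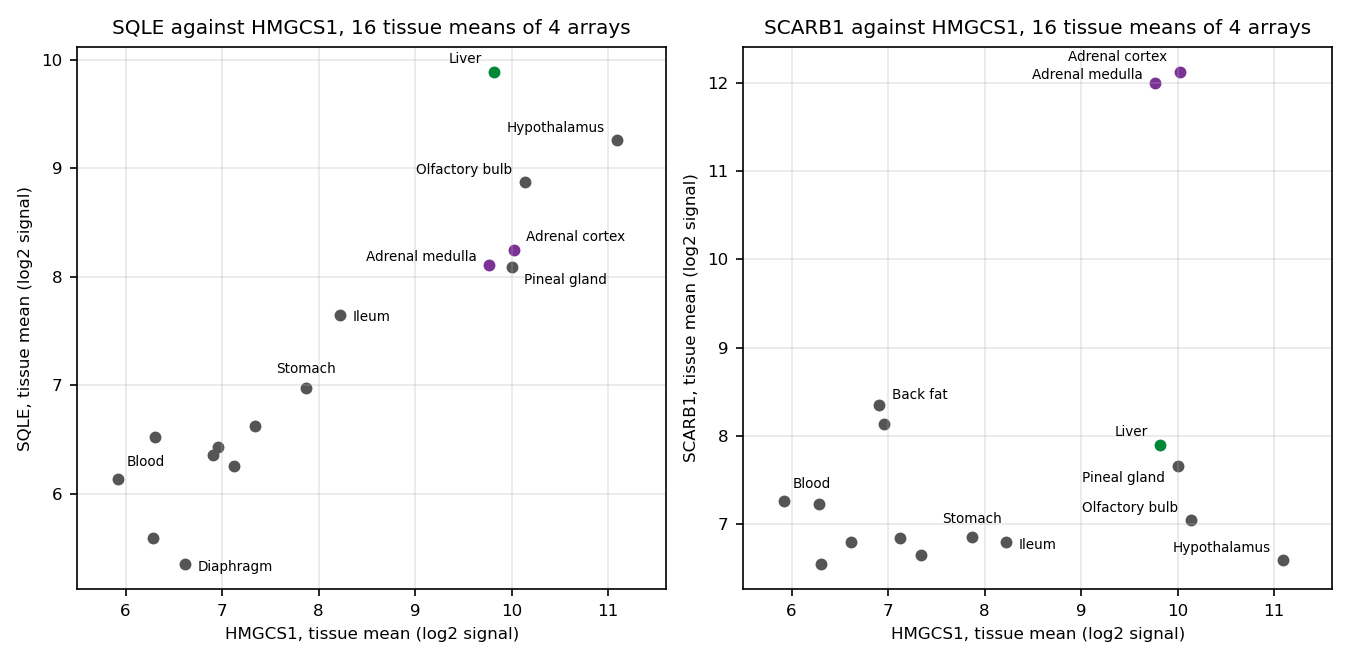
Tissue means (log2 signal, 4 arrays each) of SQLE against HMGCS1 on the left and of SCARB1 against HMGCS1 on the right, with adrenal tissues in purple and liver in green. SQLE and HMGCS1 rise together over the 16 tissues, with liver above the trend, whereas SCARB1 is at 8.35 or less in every tissue but the adrenal ones.

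The synthesis genes also moved together between animals within a tissue. After the mean of each tissue was removed, the deviations had a correlation of 0.63 between HMGCS1 and FDPS, 0.57 between HMGCS1 and SQLE and 0.51 between FDPS and SQLE over the 63 arrays without that pineal array, and 0.70, 0.65 and 0.65 over all 64. These arrays come from 4 animals and sum to 0 within a tissue. With SCARB1 the corresponding values were -0.08 for HMGCS1, 0.06 for FDPS and 0.21 for SQLE over the 63 arrays. Of the 12 probes of other synthesis genes, 10 had a correlation above 0 with HMGCS1, where 43.8% of all probes had, with a median of 0.34 against -0.04 over all probes. Of these 12, CYP51 (0.66), the leading probe of MSMO1 (0.64) and SC5D (0.62) were closest to HMGCS1. With FDPS the same probes had lower values, 0.25, 0.45 and 0.15, and with SQLE they had 0.39, 0.69 and 0.29.

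Which animals were high depended on the tissue. In liver both Large White pigs were above both Iberian pigs for HMGCS1, FDPS and SQLE, as the values above show, by 0.93, 0.99 and 0.32, and also for SCARB1 (0.42) and SREBF2 (0.41). In olfactory bulb the order was the reverse, with HMGCS1 at 9.81 and 9.55 in the Large White male and female and at 10.31 and 10.88 in the Iberian male and female, SQLE at 8.50 and 8.36 in the Large White pigs against 9.11 and 9.52 in the Iberian pigs, and FDPS at 8.29 and 8.28 in the Large White pigs against 8.56 and 9.11 in the Iberian pigs. In stomach HMGCS1 was at 7.31 and 7.14 in the Large White male and female and at 8.40 and 8.64 in the Iberian male and female, SQLE at 6.48 and 6.23 in the Large White pigs against 7.38 and 7.84 in the Iberian pigs, and FDPS at 7.11 and 6.95 in the Large White pigs against 7.33 and 7.82 in the Iberian pigs. These were the 3 tissues in which all 3 genes separated the breeds in the same direction.

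The other synthesis genes followed in part. In olfactory bulb 9 of the 12 probes had both Large White arrays below both Iberian arrays (25.2% of all probes did there) with a median difference of -0.53, in stomach 7 of 12 (19.1% of all probes) with a median of -0.62, and in liver 4 of 12 had both Large White arrays above (24.8% of all probes) with a median of 0.13. Hypothalamus, where no breed was ahead in all 3 members, had as many as stomach, with 7 of 12 above in the Large White pigs (21.5% of all probes) and a median of 0.16. The mean of the 3 myelin genes in olfactory bulb was also lower in the Large White pigs (8.33 and 8.59) than in the Iberian pigs (8.99 and 9.47). In the livers the hepatocyte genes hardly differed, but their signal lay near the top of the array's range. The macrophage genes there were at 8.70 and 8.93 in the Large White pigs against 8.41 and 8.54 in the Iberian pigs, and the red cell genes (3 of 5 listed with a probe) at 6.91 and 7.13 in the Large White pigs against 8.80 and 7.37 in the Iberian pigs. In stomach the mean of the adipocyte genes was 5.54 in both Large White pigs against 5.24 and 5.10 in the Iberian pigs. Of that list FABP4, the fatty acid binding protein of adipocytes, was at 9.04 and 9.70 in the Large White pigs against 6.83 and 5.75 in the Iberian pigs. The other genes of that list did not share this direction on average. The endothelium genes there were at 6.78 and 6.93 in the Large White pigs against 6.64 and 6.22 in the Iberian pigs. Of the 11 marker lists, 8 separated the breeds in olfactory bulb, 6 in liver and 3 in stomach, and their part in the differences of the members was not tested. Over the 16 tissues, both Large White arrays were above both Iberian arrays in 4 tissues for HMGCS1, 3 for FDPS, 5 for SQLE, 6 for SCARB1 and 6 for SREBF2, and below in 4, 3, 3, 3 and 2. Over all probes and tissues this held for 19.9% and 20.6%, or 3.19 and 3.30 of 16 tissues on average.

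Over the means of all tissues no member passed between the breeds. The animal means of HMGCS1 were 8.19 and 8.12 in the Large White male and female and 8.26 and 8.03 in the Iberian male and female, and those of SCARB1 were 7.78 and 7.96 in the Large White pigs against 7.68 and 7.77 in the Iberian pigs. The differences between breeds lay between 0.01 for HMGCS1 and 0.14 for SCARB1 over the 5 leading probes, and the widest 95% interval of limma reached from -0.15 to 0.34, for SREBF2. None of the 8 probes passed between breeds, where 0.0919% of all probes did, or between sexes, where 0.0627% of all probes did. At an unadjusted p under 0.05 from limma there were 0 of the 8 in either comparison, against 3169 and 872 of all probes.

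The adrenal and liver difference itself was compared between breeds in the 4 animals. It was -0.21 and -0.65 for HMGCS1 in the Large White male and female and 0.42 and 0.77 in the Iberian male and female, so that it differed by -1.03 between the breeds (-1.64 to -0.41, unadjusted p = 0.0066 and adjusted p = 0.22 from limma). For FDPS the breeds differed by -0.83 (adjusted p = 0.33), for SQLE by -0.55 (adjusted p = 0.37) and for SCARB1 by -0.49 (adjusted p = 0.41), all in the same direction. None of the 8 probes passed by limma, where 0.0543% of all probes did. At an unadjusted p under 0.05 there were 3 of the 8, and 2995 of all 23935 probes. Between the sexes 0 of the 8 passed and 0% of all probes did by limma, with 0 of the 8 and 1786 of all probes at an unadjusted p under 0.05.

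**Figure D5:**
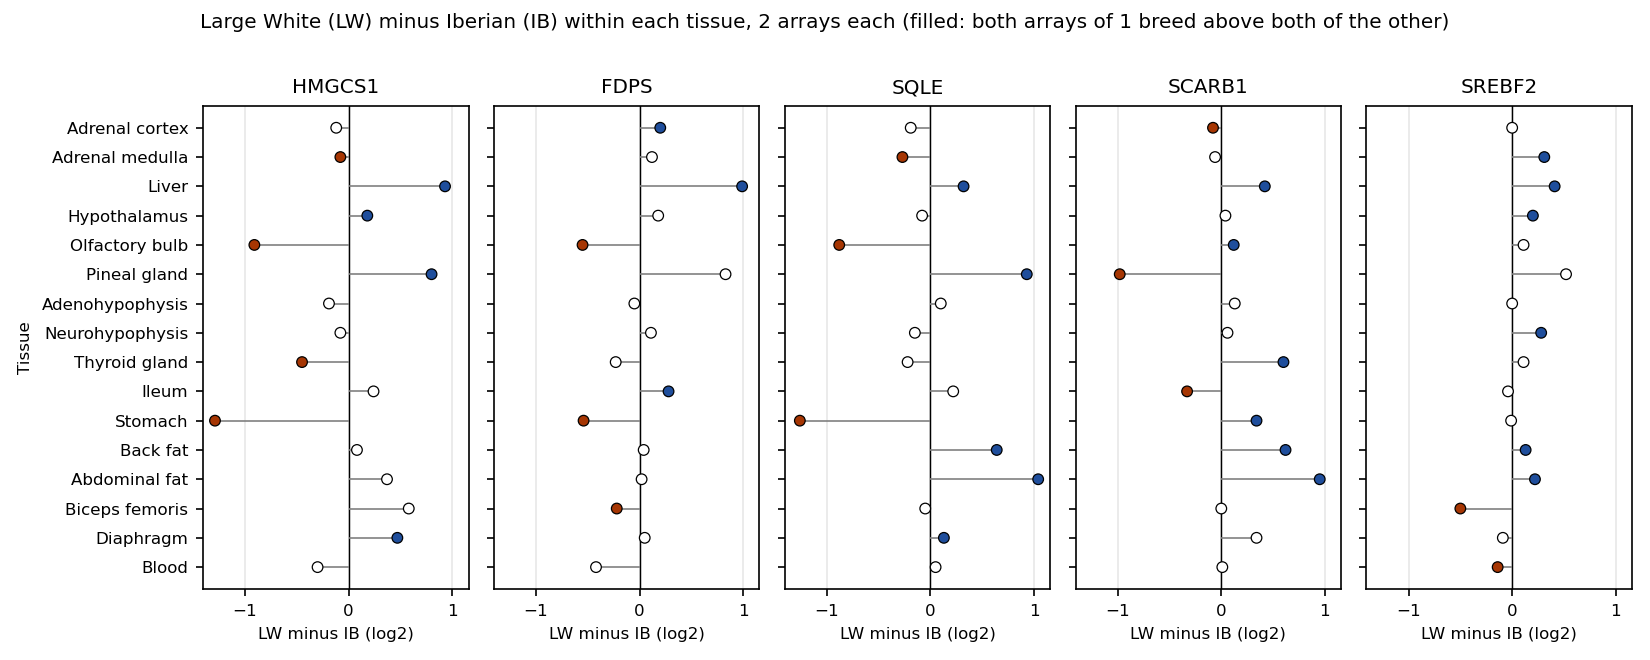
Difference between the mean of the 2 Large White and the mean of the 2 Iberian arrays within each tissue (log2), for the leading probe of each gene. Filled points mark tissues in which both arrays of 1 breed were above both of the other (blue Large White, brown Iberian), and HMGCS1, FDPS and SQLE lie to the right in liver and to the left in olfactory bulb and stomach.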

How the data were processed

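Total RNA of each tissue was labelled and hybridised to 1 Affymetrix porcine array per animal and tissue. The submitters' processing notes name GCOS, and according to the methods the authors used it for the signals and libaffy for RMA over all arrays. For both tools the version is not given in the sources used here. As deposited, values are log2 signals after RMA. RMA corrects the background, gives the oligonucleotide signals of all arrays the same distribution and then combines them into probe sets. This can compress differences of dim or very bright probes. All 64 columns were matched to a sample and 0 were left without one. Array medians lay between 5.38 and 5.51. Precision depends on how many arrays there are.

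The 188 control probe sets were left out of the 24123, and 23935 probes remained. The platform annotation, which can be old, gave 1 symbol to 10069 of them, several to 198 and none to 13668. Of several probes of a gene, the probe with the highest mean over all arrays led. Differences between tissues came from limma 3.58.1 (R 4.3.3) on all 64 arrays with tissue, breed and sex as fixed effects, and p-values were adjusted after Benjamini and Hochberg over all 23935 probes at an FDR of 0.05. Breeds and sexes were compared with limma on the means of the 4 animals, and the adrenal and liver difference between breeds or sexes on the 4 within-animal differences. Summaries used Python 3.11.15 with pandas 2.3.3. The steps of the fit were tested on simulated data. Every tissue came from the same 4 animals, so arrays of 1 animal are paired by the design. A fit with the animal as a random block found a consensus correlation of -0.0063. That fit also held breed and sex, which take up most of the difference between 4 animals. The value thus does not show that arrays of 1 animal are independent.

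The members and lists were chosen with earlier results of these data known. All probes of the members were named, as were marker genes of a written list of cell types, and any gene of a written list of cholesterol genes with a probe could be named. For each member, those named were also the 3 probes of other genes with 1 symbol other than a LOC number and the highest correlation over the 16 tissue means. The 3 results that the pineal array brought past the threshold and the arrays or tissues singled out in the closing section were chosen after their values were seen. Alternatives were other scalings, the brighter probes, other sets of arrays, other terms in the model and leaving out each array or animal. Genome positions are not given, as no source used here names a build for the array.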

Additional observations from a re-analysis of the deposited data

Results flagged for a closer look

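Of the 80 groups of 4 arrays (5 leading probes in 16 tissues), 6 had an array far from the other 3 by Dixon's criterion, where chance gives about 1 in 20. The Large White male's pineal array accounted for 4 of them, with FDPS at 9.32, SQLE at 9.33, SREBF2 at 8.85 and SCARB1 at 6.27. Its myelin genes and the results without it are given above. The others were the Iberian female in *Biceps femoris*, with HMGCS1 at 5.30 (6.55 to 6.68 in the other 3 animals), and in ileum, with FDPS at 8.04 (8.49 to 8.57 in the other 3).

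Some tissues moved in opposite directions between the breeds, and these differences between tissues were not tested. Both Large White arrays were above both Iberian arrays in 4 tissues and below in 4 for HMGCS1, above in 3 and below in 3 for FDPS, above in 5 and below in 3 for SQLE, above in 6 and below in 3 for SCARB1 and above in 6 and below in 2 for SREBF2. On average over all probes this was the case in 3.19 and 3.30 tissues. Between sexes both males were above both females in 4 tissues and below in 0 for HMGCS1, above in 0 and below in 4 for FDPS, above in 1 and below in 4 for SQLE, above in 2 and below in 1 for SCARB1 and above in 0 and below in 3 for SREBF2, with averages of 2.38 and 2.41 tissues over all probes. With arrays centred on their medians, an alternative chosen after seeing the data, FDPS was above in 2 tissues between breeds and below in 5 between sexes, HMGCS1 was above in 2 between sexes, and the other counts stayed the same.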

How the results depend on the processing

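Between adrenal gland and liver the same number of leading probes, 3, passed in all 26 alternatives. With the natural logarithm, which changes the unit, left aside, the difference lay between 4.06 and 4.29 for SCARB1, 0.96 and 1.48 for FDPS and -1.81 and -1.55 for SQLE. That of HMGCS1 lay between -0.15 and 0.34 without single arrays or animals, and it was negative without either Iberian liver or either Iberian animal. SREBF2 probe 2 passed after median centring (adjusted p = 0.046), with adrenal and liver arrays alone (0.038) and without the liver (0.028) or all arrays (0.035) of the Large White male, and in the other alternatives it did not. With the animal as a replicate block, 11719 of all probes passed between adrenal gland and liver, against 11626 without it, and the replicate block changed no call of a member. Among the brighter probes, a smaller number tested, 7278 passed between adrenal gland and liver, 6853 between adrenal medulla and liver (11057 among all), 139 between medulla and cortex (240 among all), 7689 between adrenal gland and the 13 other tissues (13458 among all) and 7615 between liver and these (11828 among all). Between medulla and cortex 54 passed with adrenal and liver arrays alone, and 30 to 310 without single arrays or animals. The lowest count, 30, was without the Iberian male. Between breeds the count of 22 became 53 among the brighter probes, 44 with breed alone and 3045 with 64 arrays as replicates, and between sexes the count of 15 became 6 among the brighter probes and 348 with arrays as replicates. For the adrenal and liver difference the 13 probes between breeds became 0 with breed alone and 0 to 0 without single animals, and between sexes 0 to 1 passed. The breed difference of HMGCS1 turned to -0.02 after repeated quantile normalization and -0.03 without the Large White male's pineal array (-0.10 to 0.13 without single animals), that of SQLE to -0.0013 and -0.03 (-0.01 to 0.05) and that of FDPS to -0.01 without that array (-0.01 to 0.11), and none of them passed. SCARB1 in pineal gland turned to 0.34 without that array (-0.35 to 0.34 without single arrays or animals), FDPS in back fat to 0.01 after median centring, 0.01 on the natural logarithm and 0.02 without that array (-0.15 to 0.12), and HMGCS1 in ileum lay between -0.05 and 0.16, and none of these passed either. After repeated quantile normalization SCARB1 in blood was at -0.04 (adjusted p = 0.83) and SREBF2 in blood at 0.65, which passed. The causes of these changes were not tested. Results rest on 4 animals and, for most members, on 1 probe per gene.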
